A study of Saccharomyces cerevisiae with 6 samples.

Results

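The genes described here are the 6 members of the cytosolic Hsp70 family of baker's yeast that are named SSA1, SSA2, SSA3, SSA4, SSB1 and SSB2. They were chosen by name, through their locus identifiers YAL005C, YLL024C, YBL075C, YER103W, YDL229W and YNL209W, and all 6 of 6 were measured, among 5667 S. cerevisiae loci in all. Hsp70 proteins bind short hydrophobic stretches of unfolded proteins and release them in a cycle of ATP binding and hydrolysis. J-proteins start the hydrolysis and exchange factors end the cycle by removing ADP. The Ssa proteins do this throughout the cytosol, in folding, transport into organelles and the handling of heat-damaged proteins, and they also hold the heat shock factor Hsf1 in check. The Ssb proteins sit at the ribosome, where they meet growing polypeptide chains together with the J-protein Zuo1 and the atypical Hsp70 Ssz1. SSA1 and SSA2 are known as the constitutive SSA genes, SSA3 and SSA4 as the stress-inducible ones, and SSB1 and SSB2 as constitutive genes that are expressed with those of the translation machinery. None of these genes has an intron.

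The study asked which mRNAs were bound to Mex67, the receptor that carries mRNA through the nuclear pore, and to Npl3, an RNA-binding adaptor of the nucleus, in growing and in heat-stressed cells. Cells in rich medium (YPD) were kept for 30 min at 25 °C or at 42 °C and treated with UV light to crosslink RNA to protein. Lysates were incubated with GFP-Trap beads and with Sepharose beads bearing an antibody to c-myc, and the RNA on the beads was recovered. Each temperature has 1 precipitate of Mex67 (strain HKY1266), 1 of Npl3 (strain HKY157) and 1 from cells without a tag (labelled HKY36/HKY381), and each of these 6 precipitates was put on 1 array. Which of the tags each protein carried is not given in the labels, nor whether the no tag strains were pooled.

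Values are the log2 values that the authors deposited, and a difference of 1 is a 2-fold difference. Each group holds 1 array, so differences are described without tests, and how far a repeat would differ is unknown. Column names carry only a strain number and the letters S or US, taken here as stressed (42 °C) and unstressed (25 °C); no label explains them. HSP104, HSP26, HSP42 and HSP82, which are 4 heat shock mRNAs outside the family, were higher on the array marked S in all 3 precipitates. The 6 arrays had median levels of S. cerevisiae loci between 11.13 and 11.18 and highest values between 15.36 and 15.43. RNAs added before labelling had medians of 6.65 and 6.64 on the control arrays at 25 °C and 42 °C and 6.35 on the Mex67 array at 25 °C, but 5.01 on the Mex67 array at 42 °C and 5.22 and 5.40 on the Npl3 arrays. The strains also differed in mating type genes: at 25 °C the alpha pheromone gene MF(ALPHA)1 was at -7.82 with Mex67 and at -6.40 with Npl3 relative to the control, and the receptor gene STE2 of a cells was at 5.36 and 5.37. Differences between a precipitate and the control therefore cannot be told apart from differences between strains. As a yardstick for background, the array's probe sets for fission yeast (S. pombe) were used, since the labels give S. cerevisiae as the only organism. In each comparison of 2 arrays named below, 95% of them differed by less than a value between 0.44 and 0.53. These probe sets are dim, and they do not show the spread between independent precipitations.

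**Figure D1:**
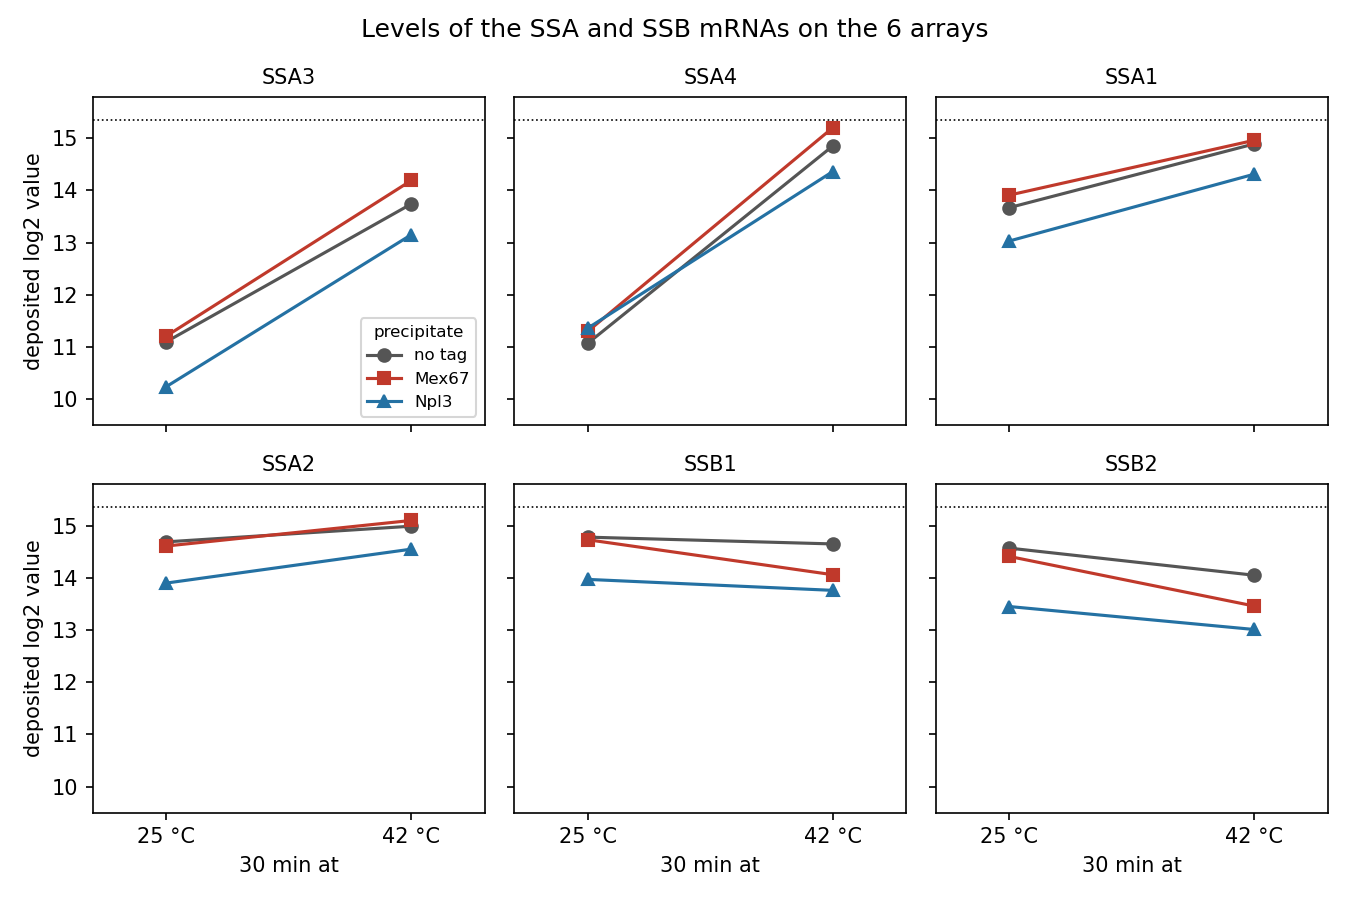
Deposited log2 values (vertical axis) of the 6 Hsp70 mRNAs after 30 min at 25 °C or 42 °C, with 1 point per array and a line joining the arrays of 1 precipitate; the dotted line is the lowest of the 6 arrays' highest values, 15.36. SSA3 and SSA4 start between 10.24 and 11.36 and end between 13.15 and 15.20, while SSA1, SSA2 and the SSB mRNAs stay above 13 throughout.

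The stress-inducible members had the largest heat differences of the family in all 3 precipitates. SSA4 was at 11.07 in the control, 11.30 with Mex67 and 11.36 with Npl3 at 25 °C. At 42 °C it was at 14.85, 15.20 and 14.36. The heated and unheated arrays did not overlap, and the differences were 3.78, 3.90 and 3.001, or 13.7-fold, 14.9-fold and 8.01-fold. Among all loci above the floor, SSA4 had the 7th highest heat difference of 5647 in the control, the 14th of 5650 with Mex67 and the 4th of 5634 with Npl3. SSA3 was at 11.10, 11.21 and 10.24 at 25 °C in the same order of precipitates. At 42 °C it was at 13.74, 14.19 and 13.15, again with no overlap. Its differences were 2.64, 2.98 and 2.91, or 6.22-fold, 7.91-fold and 7.51-fold, at ranks 30, 52 and 5. How many of all loci also had every heated array above every unheated one was not counted.

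SSA4 and SSA3 differed from each other on the unheated Npl3 array. Relative to the unheated control, SSA3 was at -0.86 there and SSA4 at 0.28. The heat difference of SSA4 exceeded that of SSA3 by 1.14 in the control and by 0.91 with Mex67, but by 0.09 with Npl3. SSA4 lay only 0.58, 0.23 and 1.06 below the highest value of the heated control, Mex67 and Npl3 arrays, and SSA3 lay 1.69, 1.23 and 2.27 below it. Values so close to the top leave little room for a larger difference, and whether this lowered the differences of SSA4 was not tested.

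The constitutive SSA members divided, with SSA1 showing a heat difference above 2-fold and SSA2 a smaller one. SSA1 was at 13.67, 13.91 and 13.03 in the control, Mex67 and Npl3 precipitates at 25 °C. At 42 °C it was at 14.89, 14.96 and 14.31. Each heated array was above all 3 unheated ones, and how many of all loci shared this was not counted. The differences were 1.21, 1.05 and 1.28, or 2.32-fold, 2.07-fold and 2.43-fold. The Mex67 value is close to the 2-fold limit: it was 0.77 without the trend with gene length and 0.96 after quantile normalization. That pair of arrays had medians of the added RNAs of 6.35 and 5.01. Heated SSA1 lay 0.54, 0.46 and 1.11 below the highest value of the control, Mex67 and Npl3 arrays.

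SSA2 was at 14.69, 14.61 and 13.90 at 25 °C and at 14.99, 15.10 and 14.55 at 42 °C. It was higher in each heated precipitate, by 0.30, 0.49 and 0.65, or 1.23-fold, 1.40-fold and 1.57-fold, but the groups overlapped, since the heated Npl3 array lay below the unheated control and Mex67 arrays. Of the heat differences of SSA2, those in the control and with Mex67 were below the yardstick of 0.49 and that with Npl3 was above its yardstick of 0.45. SSA2 already lay within 0.70, 0.76 and 1.46 of the highest value at 25 °C. The heat difference of SSA1 exceeded that of SSA2 by 0.91 in the control, 0.56 with Mex67 and 0.63 with Npl3. The proteins of SSA1 and SSA2 are nearly identical. Each gene has 1 probe set annotated to it alone, and how far these probes separate the transcripts was not tested.

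The SSB mRNAs were lower on every heated array than on the unheated array of the same precipitate, by less than 2-fold. SSB2, with 1 probe set of its own, was at 14.57 in the control, 14.41 with Mex67 and 13.45 with Npl3 at 25 °C and at 14.05, 13.46 and 13.01 at 42 °C. The differences were -0.53, -0.95 and -0.44, or 1.44-fold, 1.93-fold and 1.36-fold lower, and the groups overlapped because both Npl3 arrays were low. Only the Mex67 difference of SSB2 was clearly outside the yardstick (0.49), with the control value of -0.53 just past it. SSB1, as the mean of 2 probe sets, was at 14.78, 14.73 and 13.97 at 25 °C and at 14.65, 14.06 and 13.76 at 42 °C, with differences of -0.13, -0.67 and -0.21, of which the Mex67 value was outside the yardstick. One of these probe sets is annotated to SSB1 alone and the other to SSB1 and SSB2 together. The SSB1 probe set alone gave -0.14, -0.86 and -0.24, and the shared one -0.12, -0.48 and -0.17. The shared probe set is no separate evidence for either gene. At 25 °C SSB1 lay 0.60 and 0.65 below the highest value of the control and Mex67 arrays, and SSB2 lay 0.81 and 0.96 below it. Whether this lowered the SSB differences was not tested.

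**Figure D2:**
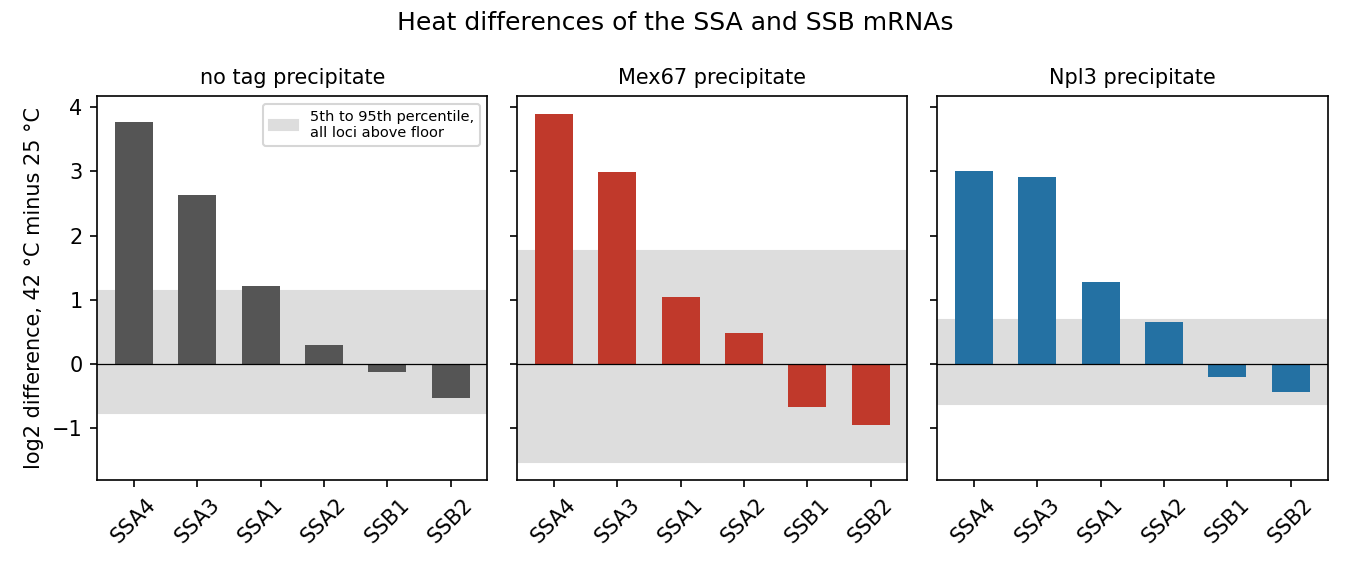
Log2 difference between 42 °C and 25 °C (vertical axis) of each Hsp70 mRNA in the no tag, Mex67 and Npl3 precipitates; bars are single differences between 2 arrays, and the grey band spans the 5th to the 95th percentile of all S. cerevisiae loci above the floor. SSA4 and SSA3 lie above the band in all 3 precipitates, SSA1 lies above it in the control and with Npl3, and SSA2 and the SSB mRNAs lie inside it.

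Over the family, 3 of 6 members (SSA1, SSA3 and SSA4) were at least 2-fold higher at 42 °C in each precipitate. Of all loci above the floor, 6.69% were so in the control, 15.4% with Mex67 and 2.11% with Npl3. The floor is the level that 95% of S. pombe probe sets on an array stay below. None of the 6 members was at least 2-fold lower, against 2.07%, 12.2% and 1.38% of all loci. The median heat difference over the 6 members was 0.76 in the control, 0.77 with Mex67 and 0.97 with Npl3, where the median of all loci was 0.00, 0.03 and 0.01. These medians summarise a family whose members went in opposite directions.

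Setting inducible against constitutive members within 1 precipitate removes any shift common to an array. The heat difference of SSA4 exceeded that of SSA1 by 2.56 in the control, 2.85 with Mex67 and 1.72 with Npl3. It exceeded that of SSA2 by 3.48, 3.41 and 2.35. SSA3 exceeded SSA1 by 1.42, 1.93 and 1.63, and SSA2 by 2.34, 2.50 and 2.26. In the order SSA4, SSA3, SSA1, SSA2, SSB1, SSB2 the heat differences decreased in each precipitate without an exception. Some steps were small, and no yardstick was computed for them. The step between SSA4 and SSA3 was 0.09 with Npl3, and those between SSB1 and SSB2 were 0.40, 0.28 and 0.23. SSA2 and SSB1 were 0.43 apart in the control, and SSA1 and SSA2 were 0.56 apart with Mex67 and 0.63 with Npl3.

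Inducible and constitutive paralogues of other chaperones were set beside these. HSP82 and HSC82 encode the inducible and the constitutive Hsp90. The heat difference of HSP82 exceeded that of HSC82 by 1.26 in the control, 1.64 with Mex67 and 1.60 with Npl3. SSE1 and SSE2 encode the Hsp110 proteins, relatives of Hsp70 that act as its exchange factors. SSE2 exceeded SSE1 by 0.76, 2.06 and 1.38. The SSA4 to SSA2 gap, the widest of the SSA gaps, was larger than either of these in all 3 precipitates. The SSA3 to SSA1 gap was not: with Mex67 it was 1.93, below the 2.06 of SSE2 and SSE1. Unheated SSA2 lay 0.70, 0.76 and 1.46 below the highest value of the control, Mex67 and Npl3 arrays. The part of this in its gaps was not tested.

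To set the heat response of the tagged precipitates against the control, the control's heat difference was subtracted from theirs. None of the 6 members was at least 2-fold higher or lower in the Mex67 precipitate over the control, where 5.06% and 5.4% of all loci were. With Mex67, SSA4 was at 0.12, SSA3 at 0.35, SSA2 at 0.19 and SSA1 at -0.16, while SSB1 was at -0.54 and SSB2 at -0.43. The yardstick for such a difference of differences was 0.62, and all 6 lay within it. SSB1 was at -0.72 by its own probe set, outside the yardstick, and at -0.36 by the shared one, within it. Without the trend with gene length SSB1 was at -0.68, also outside, and SSB2 at -0.56, within it. With Npl3, again none of the 6 was at least 2-fold higher or lower, against 1.13% and 4.3% of all loci. SSA4 was at -0.78 and lay outside the yardstick of 0.64, with 92.9% of loci above it. The other 5 members lay between -0.08 and 0.35. Both comparisons share the control arrays.

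**Figure D3:**
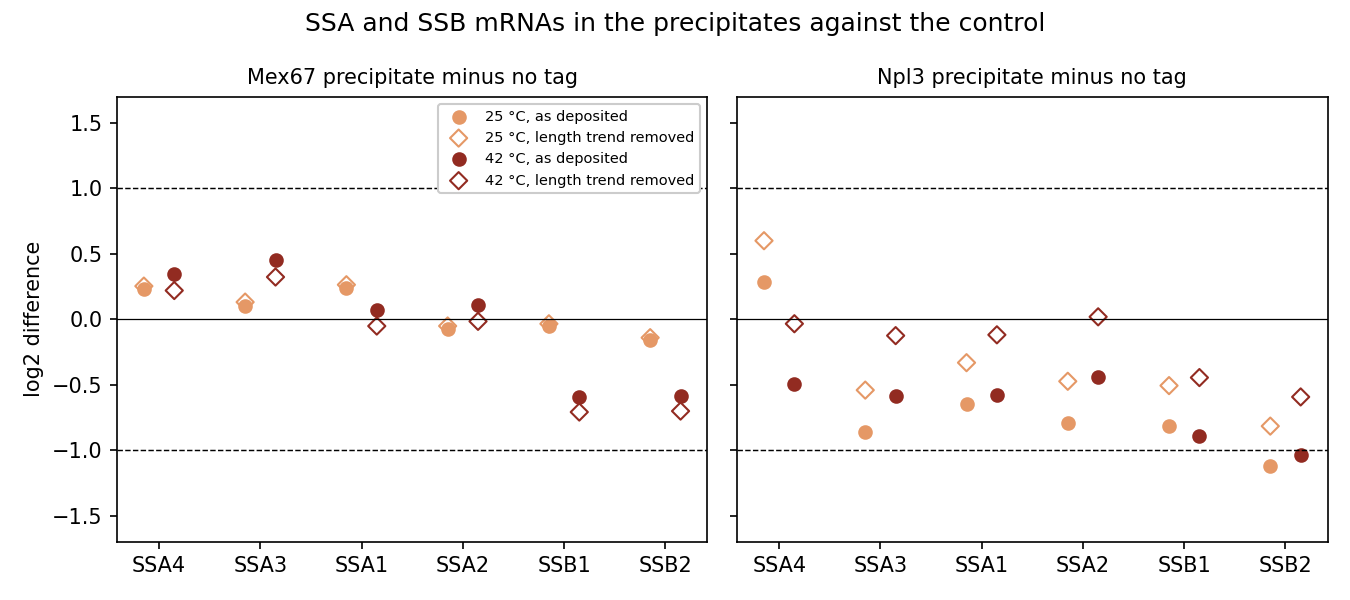
Log2 difference between a precipitate and the no tag control (vertical axis) for each Hsp70 mRNA at 25 °C (light) and 42 °C (dark), as deposited (filled) and with the trend with gene length removed (open); dashed lines mark 2-fold, and each point is 1 difference between arrays. As deposited, Mex67 differences stay between -0.16 and 0.24 at 25 °C and reach -0.59 for both SSB mRNAs at 42 °C. Without the length trend SSB1 is at -0.71 and SSB2 at -0.70 there. With Npl3, SSB2 passes the 2-fold line at both temperatures as deposited but not without the length trend.

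In the Mex67 precipitate the family was close to the control at 25 °C. SSA1 was higher by 0.24, SSA4 by 0.23 and SSA3 by 0.10, and SSA2 was at -0.08, SSB1 at -0.06 and SSB2 at -0.16. All 6 lay within the yardstick of 0.44, and none was at least 2-fold higher (0.746% of all loci) or lower (0.657%). At 42 °C the SSA and SSB mRNAs separated. SSA3 was at 0.45, SSA4 at 0.35, SSA2 at 0.11 and SSA1 at 0.07, within the yardstick of 0.47, whereas both SSB1 and SSB2 were at -0.59. By its own probe set SSB1 was at -0.78, and the probe set shared with SSB2 was at -0.41, within the yardstick. Without the trend with gene length SSB1 was at -0.71 and SSB2 at -0.70. Again none was at least 2-fold higher (6.97% of all loci) or lower (5.79%). The heated Mex67 array had a median of the added RNAs of 5.01 against 6.64 for the heated control, and the part of this in the SSB values was not tested.

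In the Npl3 precipitate 5 of 6 members were lower than in the control at 25 °C and 6 of 6 at 42 °C. The share of all loci below 0 was not counted, but their median was also negative, at -0.08 and -0.14. At 25 °C SSA1 was at -0.65, SSA2 at -0.79, SSA3 at -0.86, SSB1 at -0.81 and SSB2 at -1.12, and SSA4 alone was above 0, at 0.28. At 42 °C the differences were -0.58, -0.44, -0.59, -0.89 and -1.04 for the same 5, and -0.49 for SSA4. SSA4 at 25 °C lay within the yardstick of 0.53, and SSA2 and SSA4 at 42 °C within that of 0.51. At 42 °C SSA1, SSA2, SSA3 and SSA4 had 33.6%, 39.1%, 33.3% and 36.7% of loci below them. SSB2 was thus the 1 member at least 2-fold lower at both temperatures, where 15.1% and 19.4% of all loci were. None of the 6 was at least 2-fold higher, against 18.1% and 18.7%. SSB1 reached -1.02 at 42 °C by its own probe set.

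Members that were lower with Npl3 had smaller differences without the trend with gene length. Whether length accounts for the shift was not tested. The 6 genes span 1842 to 1950 bp, above the median of 1224 bp over all loci, so removing the trend moves all 6 by similar amounts. For actin mRNA, the 3' minus 5' difference between probe sets was 1.35 and 1.10 on the unheated and heated Npl3 arrays, against 0.53 and 0.56 on the control arrays, 0.55 on the unheated and 0.80 on the heated Mex67 array. The part of this in the Npl3 values was not tested. Without the length trend SSB2 was at -0.82 and -0.59 and SSB1 at -0.51 and -0.45. SSA1, SSA2, SSA3 and SSA4 were then between -0.13 and 0.02 at 42 °C. SSA4 was at 0.60 at 25 °C. The control and Npl3 arrays also had different medians of the added RNAs, 6.65 and 6.64 against 5.22 and 5.40.

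Between the tagged precipitates, members were higher with Mex67 than with Npl3 at 25 °C by 0.71 to 0.96, except for SSA4 at -0.06. None passed 2-fold there in either direction (12.1% of all loci were higher and 15.2% lower). At 42 °C the differences were 1.04 for SSA3, 0.84 for SSA4, 0.65 for SSA1, 0.55 for SSA2, 0.45 for SSB2 and 0.30 for SSB1. SSA3 was the 1 of 6 members at least 2-fold higher (22.5% of all loci) and none was lower (20.2%). The SSA3 value was 0.99 when the arrays were centred on the median of S. cerevisiae loci and 0.47 without the length trend. Without that trend all 6 differences at 42 °C lay between -0.24 and 0.47.

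The order of the 6 arrays was the same for SSB1 and SSB2. From lowest to highest it ran from Npl3 at 42 °C over Npl3 at 25 °C, Mex67 at 42 °C, the control at 42 °C and Mex67 at 25 °C to the control at 25 °C. For both genes 4 of the 5 steps between neighbours were within the yardstick of that pair of arrays, and the exception was the step from the heated Mex67 array to the heated control. SSA1, SSA3 and SSA4 had the 3 heated arrays on top in the order Npl3, control, Mex67. How many of all loci had these orders was not counted. For SSA4 only the step of 3.001 between the unheated and the heated Npl3 array exceeded its yardstick. SSA2 was lowest in both Npl3 arrays, and only the step of 0.65 between these exceeded it. SSA1 exceeded it in 2 of its 5 steps and SSA3 in 3 of 5.

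The SSB mRNAs were set beside the mRNAs of 129 cytosolic ribosomal proteins. These had a median heat difference of -0.53 in the control, -2.29 with Mex67 and -0.23 with Npl3. In the control SSB2, at -0.53, lay in the middle of them, with 65 of 129 more negative, and SSB1 lay near their upper end, with 126 of 129 more negative. With Mex67, 128 of the 129 were more negative than SSB1 and 125 more negative than SSB2. With Npl3 it was 73 for SSB1 and 18 for SSB2. With heat the SSB mRNAs were therefore less negative in the Mex67 precipitate than most ribosomal protein mRNAs on the same arrays. Against the control at 42 °C, 124 of 129 ribosomal protein mRNAs had a lower Mex67 value than SSB1, and 124 than SSB2. Ribosomal protein genes are shorter, with a median length of 771 bp, and the part of length in this gap was not tested.

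**Figure D4:**
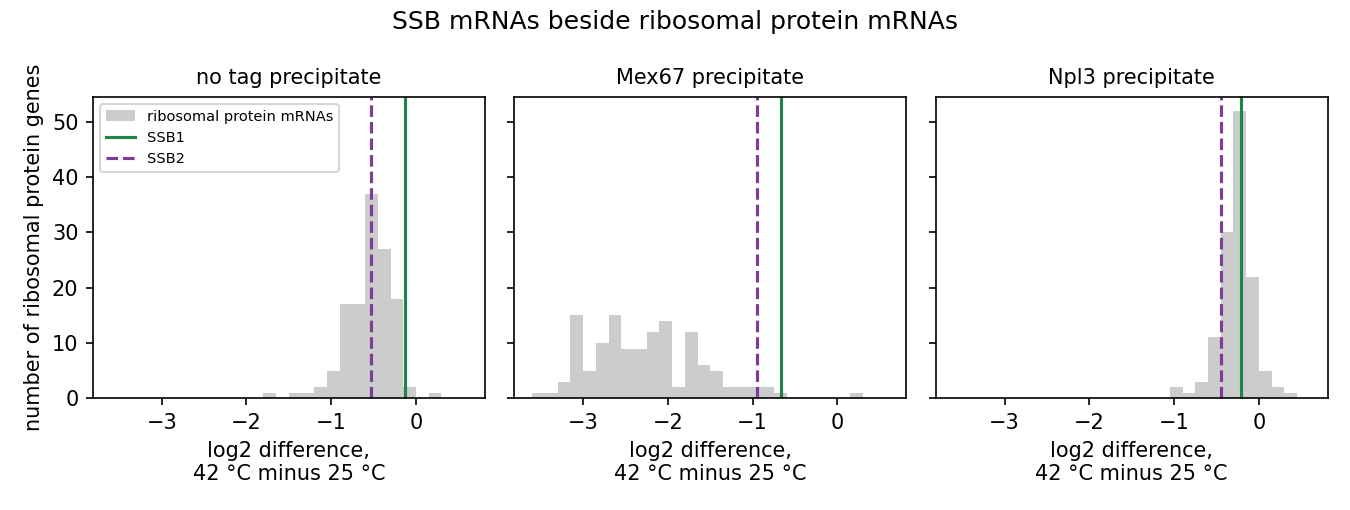
Histogram of the log2 difference between 42 °C and 25 °C (horizontal axis) over 129 ribosomal protein mRNAs (grey, vertical axis in genes) in each precipitate, with SSB1 (solid line) and SSB2 (dashed line). With Mex67 the ribosomal protein mRNAs spread around a median of -2.29, and both SSB lines lie at the right edge.

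The other genes of the Hsp70 system were taken from 7 lists with 35 genes in all. At least 2-fold higher at 42 °C were 7 of 35 in the control, 11 with Mex67 and 8 with Npl3, where 6.69%, 15.4% and 2.11% of all loci were. At least 2-fold lower were 3, 5 and 0 of 35, where 2.07%, 12.2% and 1.38% of all loci were, so that the count of 5 with Mex67 is near the background. The ribosome-associated chaperones that work beside Ssb were all lower with heat in all 3 precipitates. ZUO1, the J-protein partner, was at -1.01 in the control, -1.73 with Mex67 and -0.57 with Npl3. SSZ1, its partner in the ribosome-associated complex, was at -0.55, -1.12 and -0.59. EGD1 and EGD2, the subunits of the nascent polypeptide-associated complex, were at -0.96 and -1.10 in the control, -1.81 and -2.07 with Mex67 and -0.54 and -0.76 with Npl3. BTT1, an alternative subunit of that complex, was at -0.66, -0.93 and -0.44. At least 2-fold lower were thus 2 of 5 in the control, 4 of 5 with Mex67 and 0 of 5 with Npl3, beside the same 2.07%, 12.2% and 1.38% of all loci. All 5 were more negative than SSB1 and SSB2 in the control. With Mex67, BTT1 at -0.93 was less negative than SSB2 at -0.95.

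Among the J-proteins of the cytosol, SIS1, an essential partner of Ssa, was at least 2-fold higher in all 3 precipitates, by 1.10, 1.74 and 1.16. YDJ1, the abundant partner of Ssa, was higher by 0.66, 0.83 and 0.33. APJ1 was higher by 1.77 and HLJ1 by 1.33 with Mex67, against 0.05 and 0.48 in the control and 0.51 and 0.41 with Npl3. Of 11 such genes, 1 was at least 2-fold higher in the control, 3 with Mex67 and 1 with Npl3, beside 6.69%, 15.4% and 2.11% of all loci, and 0 were lower.

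Among the 5 exchange factors, SSE2 was higher by 1.17, 2.64 and 1.72 and FES1 by 0.29, 1.52 and 0.85. SSE1 was at 0.41, 0.58 and 0.34 and LHS1, which acts in the endoplasmic reticulum, at 0.28, 0.44 and 0.39. SNL1, which is anchored in the membrane of that compartment, was at -1.75 in the control, -2.20 with Mex67 and -0.30 with Npl3.

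The Hsp70s of other compartments had smaller heat differences than SSA3 and SSA4. KAR2, the Hsp70 of the endoplasmic reticulum, was at 0.52, 0.94 and 1.22, and SSC1, the main mitochondrial Hsp70, was at 0.47, 0.65 and 0.42. SSQ1 and ECM10, the other mitochondrial ones, lay between -0.03 and 0.54. Of these 4 genes, 0 were at least 2-fold higher in the control and with Mex67, and 1 with Npl3. Of all loci, 6.69%, 15.4% and 2.11% were so in the control, Mex67 and Npl3 precipitates.

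On the path from Ssa to Hsp90, 1 of 4 genes was at least 2-fold higher in the control, 2 with Mex67 and 2 with Npl3. The shares of all loci were 6.69%, 15.4% and 2.11%. STI1, which bridges Hsp70 and Hsp90, was higher by 0.86, 1.39 and 1.27, and HSP82 by 1.73, 2.55 and 2.54. HSC82 was at 0.47, 0.91 and 0.93 and the co-chaperone gene CNS1 at 0.31, -0.099 and 0.30. The 3 partners of Ssa in the handling of aggregates were at least 2-fold higher in all 3 precipitates, beside the same shares of all loci. HSP104, the disaggregase that works with Ssa, was higher by 1.55, 2.22 and 1.32. The small heat shock proteins HSP26 and HSP42 were higher by 5.68, 4.79 and 3.92 and by 1.78, 2.42 and 1.14. The mRNA of HSF1, the factor that drives heat shock genes, was higher by 1.14 in the control and 2.00 with Mex67 and was at 0.01 with Npl3. MSN2 and MSN4, factors of the general stress response, lay between -0.24 and 0.86.

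**Figure D5:**
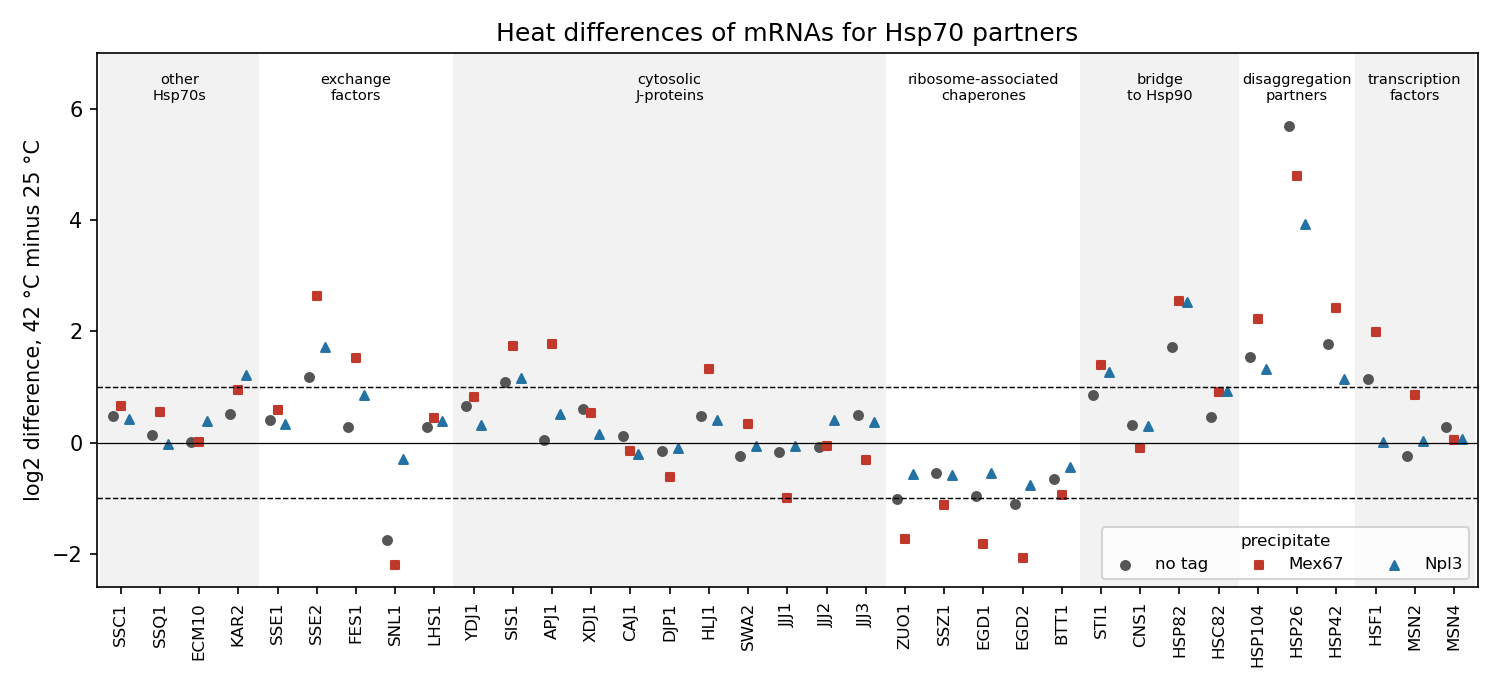
Log2 difference between 42 °C and 25 °C (vertical axis) of 35 genes of the Hsp70 system (horizontal axis, shaded by list) in the no tag (circles), Mex67 (squares) and Npl3 (triangles) precipitates; dashed lines mark 2-fold and each point is 1 difference between arrays. The ribosome-associated chaperones lie below 0 throughout, and HSP26 has the highest values at 5.68, 4.79 and 3.92.

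The genes most like each member over the 6 arrays were looked for among 5032 named loci outside the family, by the root mean square distance between log2 values after each gene's own mean was removed. These likenesses over 6 arrays are a description, and the points share 3 strains and a heat difference. SSA1 was nearest to SHM2, a serine hydroxymethyltransferase, STI1 and HSP60, the mitochondrial chaperonin, each at a distance of 0.16, with Pearson r of 0.98, 0.98 and 0.97. SSA3 was nearest to CPR6, a cyclophilin that binds Hsp90, at 0.30 (r = 0.99), HSP82 at 0.35 (r = 0.98) and HSP78, the mitochondrial disaggregase, at 0.49 (r = 0.95). Outside the family, SSA4 was nearest to HSP30, a stress protein of the plasma membrane, at 0.45 (r = 0.98), HSP12 at 0.49 (r = 0.97) and the cell wall gene PIR3 at 0.60 (r = 0.97). The distance from SSA4 to its nearest gene outside the family was larger than for any other member. Distances were not scaled to a gene's range over the arrays, which was 4.12 for SSA4 and 1.02 for SSB1. They therefore do not rank how alike members and their neighbours are. Between members, SSA3 and SSA4 lay at 0.51 from each other (r = 0.97).

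SSA2, SSB1 and SSB2, with small heat differences, had smaller distances on these unscaled values. Pearson r with the nearest gene was 0.98 for SSA2, 0.996 for SSB1 and 0.999 for SSB2. SSA2 was nearest to SRB8, a subunit of the Mediator complex, at 0.09, and to EST2, the catalytic subunit of telomerase, and IRE1, a sensor of the unfolded protein response, both at 0.10. SSB1 was nearest to GYP6, a GTPase-activating protein of vesicle transport, at 0.04, CAB2, an enzyme of coenzyme A synthesis, at 0.06 and RPG1, a subunit of a translation initiation factor, at 0.07. SSB2 was nearest to VMA5 at 0.05 and VMA6 at 0.07, subunits of the vacuolar proton pump, and to KTR3, a mannosyltransferase, at 0.07. No ribosomal protein gene was among the 3 nearest to SSB1 or SSB2, but loci with a probe set shared between transcripts were not candidates. How many ribosomal protein genes remained as candidates was not counted.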

How the data were processed

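Per the labels' protocols, RNA was recovered from crosslinked immunoprecipitates and labelled with biotin. A 3' kit and a whole-transcript manual are both cited there for labelling. The authors' deposited table holds log2 values for 10928 probe sets on each array (5716 S. cerevisiae, 4999 S. pombe, 213 control). It was made with affy, per the submitters' processing notes. Neither its version nor the normalization is stated (not given in the sources used here). From normalized values, a difference between arrays can be read only relative to the other loci, not as an absolute amount. Probe sets of a locus were averaged (47 loci of 5667 have several). Of the locus tags, 5646 were matched to RefSeq's R64 genes for names. The gene lengths include introns. Comparisons are differences of log2 values over 2 arrays, or over 4 for a heat difference beyond the control, 11 in all. A call needs a 2-fold difference and, on at least 1 array compared, a level above the floor (the 95th percentile over S. pombe on that array). Named genes were the 6 members, all genes of the lists, and the 3 nearest patterns per member among loci with a symbol and probe sets of 1 transcript, above the floor on all arrays. The members and lists were chosen with earlier results of these data known. Alternatives were centring, quantile normalization, removal of a lowess trend with log2 gene length (fraction 0.5), the highest probe set per locus, a 3-fold limit and a higher floor; the use of probe sets annotated to 1 transcript was added after seeing the data. Python 3.11.15, pandas 2.3.3 and statsmodels 0.14.6 were used, and the calls were tested on simulated data. The number of arrays limits the precision. A planned search of promoters for motifs was not run, and sequences are not used here.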

Additional observations from a re-analysis of the deposited data

Results flagged for a closer look

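Differences that changed sign between temperatures drew attention; each is a difference between single arrays, and the change of sign was not tested. SSA4 in the Npl3 precipitate was at 0.28 relative to the control at 25 °C and at -0.49 at 42 °C. Between the tagged precipitates, Mex67 minus Npl3, SSA4 was at -0.055 at 25 °C and at 0.84 at 42 °C. The first pair of values lies within the background yardsticks of 0.53 and 0.51. The change between them is the Npl3 heat difference beyond the control, and at -0.78 it lies outside its yardstick of 0.64. The value of -0.055 lies within its yardstick of 0.50, but 0.84 lies outside its yardstick of 0.47. SSA2 with Mex67 was at -0.077 relative to the control at 25 °C and at 0.11 at 42 °C, and both values lie within their yardsticks of 0.44 and 0.47.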

How the results depend on the processing

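All 66 differences of the 6 members kept within the background yardstick of their main value under both centrings, quantile normalization, the highest probe set per locus and probe sets of 1 transcript, and 60 of 66 did so without the length trend. The other 6 are Mex67 minus Npl3 at 42 °C, which became 0.09 for SSA1, -0.01 for SSA2, 0.47 for SSA3, 0.28 for SSA4, -0.24 for SSB1 and -0.08 for SSB2. Most of these settings could not have moved the 66 differences that far. Array medians lay between 11.13 and 11.18 for S. cerevisiae loci and between 3.96 and 4.02 for S. pombe probe sets, so centring changes little. The choice of probe sets can change only SSB1. All 45 contrasts between paralogues also kept within the yardstick of their main value under the 5 alternatives run for them. Both centrings leave such a contrast unchanged by construction, and the choice of probe sets can change only values of SSB1. For contrasts without SSB1, quantile normalization was the only alternative that could move them. The count of 3 members at least 2-fold higher with heat stayed within 1.5 times of 3 in each precipitate; for Mex67 it was 2 without the length trend, with SSB2 at -1.21 then 1 lower, 2 after quantile normalization, and 2 of 6 in each precipitate at 3-fold. For Npl3 minus the control the count of 1 (SSB2) became 0 at both temperatures at 3-fold and without the length trend, and 2 at 42 °C with probe sets of 1 transcript, where SSB1 was at -1.02. For Mex67 minus Npl3 the count of 1 at 42 °C (SSA3) became 0 at 3-fold, when centred on S. cerevisiae and without the length trend, and the count of 0 at 25 °C became 1 (SSB2 at 1.03) after quantile normalization. Removing the length trend also moved the median of all loci by 0.10 for Npl3 minus the control and by -0.13 for Mex67 minus Npl3, both at 42 °C. The cause was not tested beyond what each setting does by construction. No paired analysis was run, since each group has 1 array, with no replicate numbers to pair or to leave out. The heat differences of the 3 precipitates come from different proteins and strains, and a fit that treats them as replicates was not run. Signals within 0.23 to 0.87 of an array's highest value limit how far differences between abundant mRNAs can be read. Some signals of SSA1, SSA2, SSA4 and SSB1 in heated precipitates lay there, and some of SSA2, SSB1 and SSB2 in unheated ones.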
